A study of Mus musculus with 6 samples.

Results

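The matrix metalloproteases (MMPs), the ADAM and ADAMTS proteases and the tissue inhibitors of metalloproteases (TIMPs) were examined in mouse uterus at 3.5 dpc, before embryos attach. The genes were chosen by symbol (Mmp, Adam or Adamts followed by a digit, and Timp1 to Timp4) among the probe sets that name 1 gene in the platform annotation. This gave 65 genes on 116 probe sets, out of 18193 genes named in this way, and its brightest probe set on average stood for each gene. The 65 genes comprise 18 Mmp, 28 Adam, 15 Adamts and 4 Timp genes.

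RNA of whole uteri was hybridized to Affymetrix arrays, with 3 arrays from Arid1a f/f females and 3 from Arid1a d/d females, and the question was how gene expression differs between these genotypes. Females of both genotypes carry the floxed Arid1a allele and were pregnant by C57BL/6 males. Arid1a d/d females also carry Cre recombinase at 1 Pgr allele (Pgr cre/+), so that Arid1a is deleted in cells that express the progesterone receptor, while cells that never express it keep the gene. Arid1a f/f females lack Cre and mice with Cre but without the floxed allele were not on arrays, so the Cre allele and the loss of Arid1a cannot be told apart. The age of the females and the number of mice per array are not given in the sources used here, so the p-values reflect only how far these samples spread, which may be technical.

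MMPs are secreted or membrane-bound zinc enzymes that cut collagens, laminins, fibronectin and proteoglycan cores, and they are made as inactive precursors. ADAMs are membrane proteins, of which some shed growth factors and receptors from the cell surface, while ADAMTS enzymes are secreted and trim proteoglycans and procollagens. TIMPs bind the active site of these enzymes and block it. In the uterus this system remodels the stroma and its vessels during implantation and decidualization.

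Arid1a itself, the check of the labels, had intensities of 83.6, 86.9 and 103.9 in Arid1a f/f uteri and 51.9, 51.9 and 58.2 in Arid1a d/d uteri (log2 fold change -0.76, standard error 0.12, adjusted p = 0.0120, limma). Whether its probe sets fall in the deleted exons is not known here. Each value is a normalized intensity on a linear scale, and no detection calls come with it. As a guide to brightness, the median over all 45037 probe set means was 3.08. Of the 65 genes, 38 lay above it and 27 did not, and a fold change among the latter is close to background. Log2 fold changes are Arid1a d/d over Arid1a f/f, so that a value below 0 means less transcript in Arid1a d/d uteri. Intensities of single genes were compared within a probe set only, since probe sets differ in brightness. The sums given for marker lists add different probe sets, so that the brightest ones weigh most in them.

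Transcripts of Timp1, Adamts9, Mmp3, Adam15, Adamts15 and Adam19 were lower in Arid1a d/d uteri, and that of Adamts3 was higher (adjusted p under 0.05 over all probe sets, limma). Thus 6 of 65 genes were lower, which is 9.23%, against 4.06% of all 18193 genes. The 1 higher gene makes 1.54%, against 3.37% of all genes. All 7 lie among the 38 brighter genes, where 15.8% were lower and 2.63% higher, against 5.96% and 5.01% of the 12085 brighter genes of the table. The median log2 fold change of the 65 genes was -0.070, beside -0.018 over all genes, and 45 of the 65 lay below 0 (69.2%, against 53.5% of all genes). Without regard to the test, the 3 Arid1a d/d values lay below the 3 Arid1a f/f values for 15 of the 65 genes (23.1%, against 16.0% of all genes) and above them for 4 (6.15%, against 13.4%). Among the 38 brighter genes the counts were 13 (34.2%, against 19.9% of all brighter genes) and 4 (10.5%, against 17.9%). Over all probe sets 2.35% were lower and 2.42% higher by the test. The number of lower genes was 3 when Arid1a f/f replicate 1, 2 or 3 or Arid1a d/d replicate 2 was omitted, 4 when Arid1a d/d replicate 1 was and 2 when Arid1a d/d replicate 3 was, and the number of higher genes was 0 without any 1 array.

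**Figure D1:**
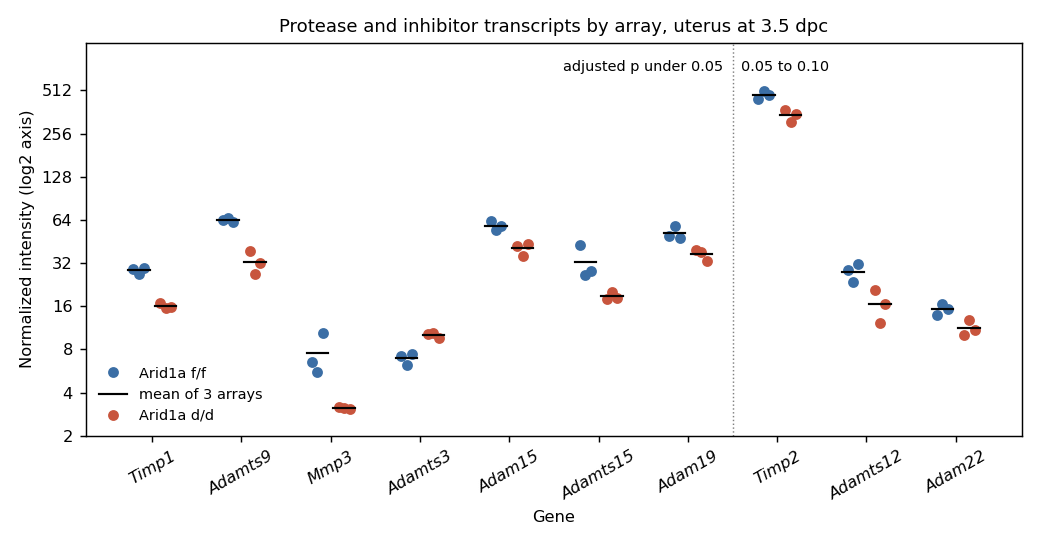
Normalized intensity on a log2 axis for each of the 6 arrays (points, blue for Arid1a f/f and red for Arid1a d/d) with the mean of each genotype (black bar). The 10 genes were picked by an adjusted p under 0.10 (limma) on these same arrays. That their genotypes do not overlap is therefore no separate evidence. Timp1 had 15.4 to 16.8 in Arid1a d/d against 26.7 to 29.7 in Arid1a f/f.

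Timp1, the secreted inhibitor of most soluble MMPs and of ADAM10, had the lowest adjusted p of the 65 genes. Its intensity was 29.2, 26.7 and 29.7 on the Arid1a f/f arrays and 16.8, 15.4 and 15.7 on the Arid1a d/d arrays. All Arid1a d/d values lay well below the Arid1a f/f values, and the arrays of a genotype lay close together. The Arid1a f/f mean was 28.5 ± 1.61 (SD, n = 3), and the transcript fell to 56.1% of that level (log2 fold change -0.83, standard error 0.10, adjusted p = 0.00437, limma). Whichever array was left out, the log2 fold change of Timp1 stayed between -0.88 and -0.80 and the adjusted p was at most 0.0245.

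Adamts9 encodes a secreted protease that cleaves versican and aggrecan. It had 63.7, 66.4 and 61.7 in Arid1a f/f uteri and 38.6, 26.8 and 31.8 in Arid1a d/d uteri. The 3 Arid1a f/f values were nearly the same, and the Arid1a d/d values were spread more widely below them. The level was 50.2% of that in Arid1a f/f uteri (log2 fold change -0.995, standard error 0.14, adjusted p = 0.00807, limma), and the call held whichever array was left out, with an adjusted p of at most 0.0442. Its second probe set had -0.70 and did not overlap between genotypes (adjusted p = 0.0654, limma), while the dimmest of its 3 probe sets had 0.16.

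Mmp3, stromelysin-1, degrades proteoglycans, laminin and fibronectin and activates other MMP precursors. It had the largest fold change among the 65 genes on the plain log2 scale, with 6.49, 5.53 and 10.46 in Arid1a f/f uteri and 3.18, 3.10 and 3.09 in Arid1a d/d uteri. The Arid1a d/d values sit just above the median over all probe sets, 3.08, so that the size of this change is uncertain. With 4 added to each intensity it was -0.67 and did not pass (adjusted p = 0.0694, limma), a smaller change than that of Adamts9 at -0.91, Mmp11 at -0.71, Timp1 at -0.70 or Mmp2 at -0.70. Without that addition it was -1.21 (standard error 0.21, adjusted p = 0.0168, limma). Without Arid1a d/d replicate 3 it was -1.20 and missed the threshold (adjusted p = 0.0524, limma), and without Arid1a f/f replicate 3, the highest array, it was -0.94 and passed.

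Adamts3, which removes the N-propeptide of procollagens and activates VEGF-C, was the only one of the 65 genes to rise past the test with all 6 arrays. Its intensity was 7.16, 6.24 and 7.43 in Arid1a f/f uteri and 10.29, 10.47 and 9.63 in Arid1a d/d uteri, with no overlap. The level was 1.46-fold higher (log2 fold change 0.55, standard error 0.11, adjusted p = 0.0248, limma). It lost the call without any 1 of the arrays, at adjusted p values from 0.0531 to 0.0898, although its log2 fold change stayed between 0.47 and 0.60. Averaged over its 2 probe sets, of which the other is not above the median intensity, Adamts3 had 0.25 and did not pass.

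The stretches of 250 bases before the annotated start of these 4 genes are shown because they belong to the 3 falls with the lowest adjusted p and to the rise (RefSeq, GRCm38.p6). Capitals mark 3 motifs that were searched on both strands and do not overlap in these windows. The AP-1 motif was spelled TGANTCA. For the TATA motif the letters looked for were TATAAA. The GC box was searched as GGGCGG, which reads CCGCCC on the other strand. Mmp3 lies at chr9:7445572-7445821 on the plus strand, Timp1 at chrX:20869916-20870165 on the plus strand, Adamts9 at chr6:92943535-92943784 on the minus strand and Adamts3 at chr5:89883335-89883584 on the minus strand.
Mmp3: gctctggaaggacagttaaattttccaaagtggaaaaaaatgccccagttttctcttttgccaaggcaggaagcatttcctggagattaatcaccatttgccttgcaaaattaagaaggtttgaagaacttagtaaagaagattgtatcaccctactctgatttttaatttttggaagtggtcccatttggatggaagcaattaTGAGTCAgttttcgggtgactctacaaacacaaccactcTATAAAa
Timp1: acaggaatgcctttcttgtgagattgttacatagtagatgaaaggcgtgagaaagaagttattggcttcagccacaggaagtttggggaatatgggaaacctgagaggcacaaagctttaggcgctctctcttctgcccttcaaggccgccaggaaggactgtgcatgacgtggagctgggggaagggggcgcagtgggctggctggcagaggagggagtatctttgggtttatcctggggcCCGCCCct
Adamts9: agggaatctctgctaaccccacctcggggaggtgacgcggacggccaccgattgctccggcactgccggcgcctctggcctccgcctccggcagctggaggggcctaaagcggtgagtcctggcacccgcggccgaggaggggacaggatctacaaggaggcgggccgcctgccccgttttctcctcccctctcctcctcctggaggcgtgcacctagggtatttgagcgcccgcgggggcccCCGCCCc
Adamts3: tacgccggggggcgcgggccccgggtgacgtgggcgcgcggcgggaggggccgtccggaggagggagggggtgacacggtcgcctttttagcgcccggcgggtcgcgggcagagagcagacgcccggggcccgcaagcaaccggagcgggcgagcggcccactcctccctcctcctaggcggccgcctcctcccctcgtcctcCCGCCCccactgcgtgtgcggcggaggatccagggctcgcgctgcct

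Mmp3 held the AP-1 motif 46 bases and the TATA motif 7 bases before the annotated start and no GC box. Timp1, Adamts9 and Adamts3 each held 1 GC box, which begins 8, 7 and 47 bases before the start, and neither of the other motifs. Among all 32851 windows of this length, 6.75% held the AP-1 motif, 12.4% the TATA motif and 32.7% a GC box. Of the 42 windows of members, 10 held the AP-1 motif, 10 the TATA motif and 15 a GC box. Among the other called genes, Adam15 held a GC box and 1 window of Adam19 held the AP-1 motif. The GC box was thus found for the falling Timp1, Adamts9 and Adam15 and for the rising Adamts3. It was not found for the falling Mmp3 and Adam19. These matches are descriptions of the letters and not binding sites.

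Adam15 and Adam19 are membrane proteases of the sheddase group. Adam15 had 62.6, 54.2 and 57.5 in Arid1a f/f uteri and 42.4, 36.0 and 43.4 in Arid1a d/d uteri (log2 fold change -0.52, standard error 0.11, adjusted p = 0.0368, limma). Adam19, which sheds neuregulins, had 49.5, 58.1 and 48.0 against 39.3, 37.9 and 33.3 (log2 fold change -0.49, standard error 0.12, adjusted p = 0.0497, limma). Neither gene overlapped between genotypes, but both lost the call without any 1 of the 6 arrays. Their other probe sets did not show the fall past the test. Those of Adam15 had -0.27, -0.05 and 0.04, and its called probe set is of a type (x_at) that can detect several transcripts. The dimmer probe set of Adam19 had 0.15.

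**Figure D2:**
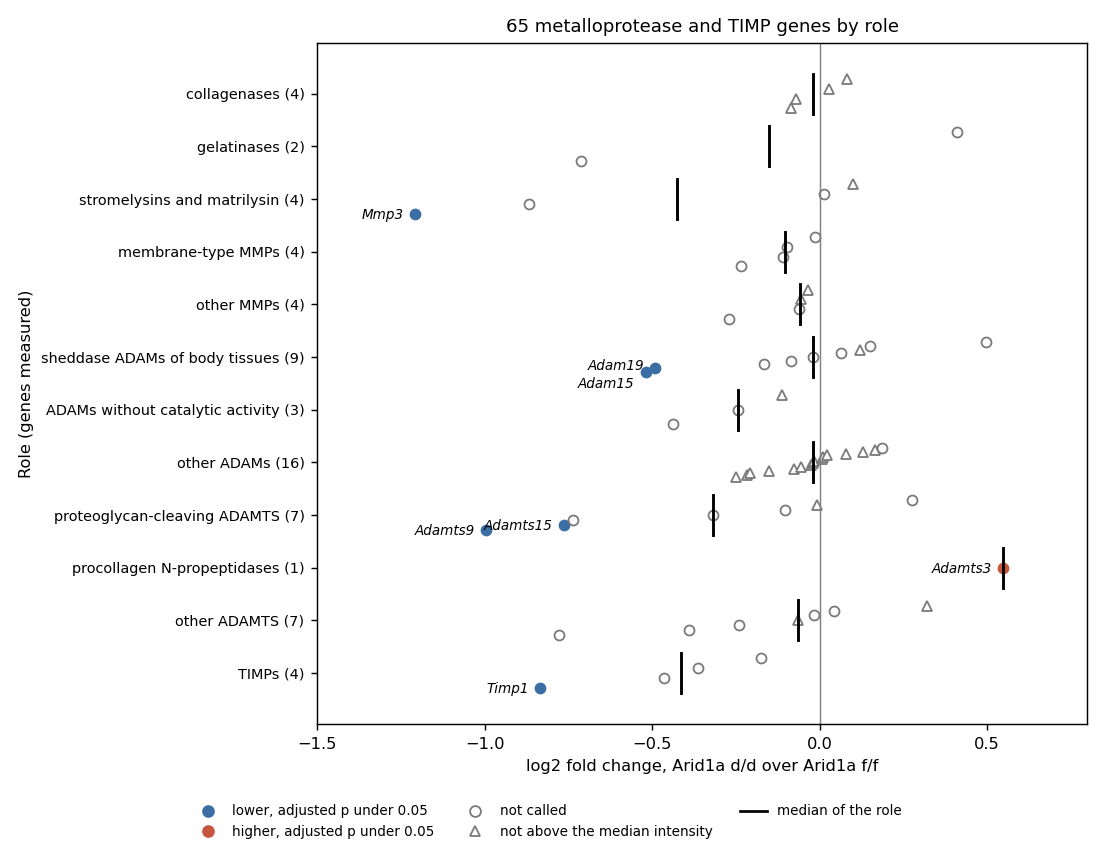
Log2 fold change of each of the 65 genes (horizontal axis) by role, with the number of genes in parentheses. Filled points passed the test, triangles mark genes not above the median intensity, and black bars are medians, which lie at -0.41 for the TIMPs, -0.32 for the proteoglycan-cleaving ADAMTS and near 0 for the collagenases.

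For Adam10, Adam17, Adam9 and Adam12 the confidence interval of the difference included 0. Adam10, which releases EGF-family ligands and cuts Notch receptors, had 144.0, 150.0 and 161.5 in Arid1a f/f uteri and 167.4, 150.0 and 158.3 in Arid1a d/d uteri. The values overlapped, with a log2 fold change of 0.06 (95% confidence interval -0.16 to 0.29). Adam17, which releases TNF and amphiregulin, had -0.09 (95% confidence interval -0.32 to 0.15), and Adam9 had -0.02 (95% confidence interval -0.28 to 0.23). Changes as large as that of Adam19 lie outside these 3 intervals on the side of a fall. Adam12 had 0.15 (95% confidence interval -0.14 to 0.44).

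Adam8, a sheddase of leukocytes and other cells, had 4.30, 5.64 and 5.64 in Arid1a f/f uteri and 8.66, 6.09 and 7.30 in Arid1a d/d uteri. Its values did not overlap, but its difference of 0.50 on the log2 scale did not pass (adjusted p = 0.128, limma). Of 10 measured neutrophil markers in the same RNA, 1 was higher, Ltf, which uterine epithelium also makes. Apart from Ltf and Lcn2, the other 8 of these markers, S100a8, S100a9, Mpo, Elane, Csf3r, Cxcr2, Ngp and Camp, had means not above the median intensity. The summed intensity of these 8 was 19.8 to 25.4 in Arid1a f/f and 18.8 to 20.9 in Arid1a d/d uteri. With Ltf and Lcn2, which carry the difference, the sum was 29.5 to 40.8 and 89.2 to 753.3. Lcn2 itself had 4.39, 3.70 and 2.84 against 51.2, 622.9 and 4.26. It overlapped between genotypes and did not pass (adjusted p = 0.184, limma). The highest sum was on Arid1a d/d replicate 2, where Lcn2 was highest. Of 12 macrophage markers 0 passed in either direction by limma. On the lower side 4 of them did not overlap between genotypes (33.3%, against 16.0% of all genes and 19.9% of the brighter ones). The sum over the 12 was 654.1 to 970.1 in Arid1a f/f and 570.0 to 732.2 in Arid1a d/d uteri.

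Among the ADAMs that lack catalytic activity, Adam22 had 13.89 to 16.68 in Arid1a f/f uteri and 10.04 to 12.90 in Arid1a d/d uteri. It did not overlap, and the difference of -0.44 on the log2 scale did not pass (adjusted p = 0.0912, limma). Adam11 had -0.24. Adam23 had -0.11 on its brightest probe set, and -0.44 with no overlap on a probe set of nearly the same brightness (adjusted p = 0.0707, limma), both not above the median intensity. Of the 16 remaining Adam genes, many of them known for expression in testis, 1 (Adam4, with means of 3.72 and 4.22) lay above the median intensity and 0 passed in limma, with 1 at an unadjusted p under 0.05. Their log2 fold changes ran from -0.25 to 0.19. The share of all genes at an unadjusted p under 0.05 was not counted.

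Of 7 measured ADAMTS genes that cleave proteoglycans, Adamts9 and Adamts15 were lower and 0 were higher. These 2 make 28.6%, against 4.06% of all genes and 5.96% of the brighter ones. Of the 7 log2 fold changes 6 lay below 0 (85.7%, against 53.5% of all genes), with a median of -0.32. Nearest to 0 of the 6 was Adamts20 at -0.0076, a gene not above the median intensity. Adamts15, an aggrecan- and versican-cleaving enzyme, had 42.8, 26.6 and 28.3 in Arid1a f/f uteri and 18.1, 20.0 and 18.1 in Arid1a d/d uteri. The first Arid1a f/f array stood above the other two, and all 3 stood above the Arid1a d/d arrays. Its log2 fold change was -0.76 (standard error 0.17, adjusted p = 0.0430, limma). Without Arid1a f/f replicate 1 it was -0.55, and the call was lost without any 1 array, at adjusted p values from 0.0554 to 0.116.

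Adamts4, the aggrecanase-1 gene, had 17.7, 32.9 and 13.7 against 10.8, 13.6 and 11.8. Its log2 fold change was -0.74 on this probe set and -0.77 on its other probe set, and neither passed (adjusted p = 0.194 and 0.127, limma). Adamts1, which is induced by progesterone in ovary and uterus, had 83.4, 93.8 and 108.2 against 100.3, 56.5 and 76.9 (log2 fold change -0.32, adjusted p = 0.462, limma). Adamts5 had 48.9, 41.3 and 34.2 against 60.9, 23.6 and 38.6, so that its Arid1a d/d values enclosed all Arid1a f/f values, with a log2 fold change of -0.10 (95% confidence interval -0.78 to 0.57), which was 0.24 without Arid1a d/d replicate 2. Adamts8 had 0.28 with no overlap and did not pass (adjusted p = 0.202, limma). Adamts8 and Adamts15 lie next to each other in the genome, as do Adamts1 and Adamts5, within 3 protein-coding genes in the RefSeq order of GRCm38.p6.

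Of 7 further ADAMTS genes 0 passed by limma, with 2 at an unadjusted p under 0.05, where the share of all genes was not counted. Adamts12, which cleaves the cartilage protein COMP, came nearest with 28.7, 23.5 and 31.5 in Arid1a f/f uteri and 20.7, 12.3 and 16.6 in Arid1a d/d uteri. All Arid1a d/d values were lower (log2 fold change -0.78, standard error 0.19, adjusted p = 0.0565, limma), and it passed without Arid1a d/d replicate 1, at -0.96 and an adjusted p of 0.0328. Adamts10, which binds fibrillin microfibrils, had 23.8, 26.4 and 20.2 against 16.4, 19.0 and 18.0 (log2 fold change -0.39, adjusted p = 0.122, limma). Adamts7 had -0.02.

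Of the 18 Mmp genes, Mmp3 was the only one past the test. This makes 5.56% lower, near the 4.06% of all genes and 5.96% of the brighter ones. The collagenase genes Mmp1a, Mmp1b, Mmp8 and Mmp13 had means of at most 2.28, all below the median intensity, and log2 fold changes from -0.09 to 0.08. Mmp3 lies with 8 other measured Mmp genes in 1 cluster on chromosome 9, in which each is at most 3 protein-coding genes from the next. The other 8 of the cluster had log2 fold changes from -0.09 to 0.10 and means from 1.76 to 3.64. The fall was thus measured for 1 gene of the 9, and for 7 of the other 8 the intensity was not above the median.

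The gelatinases, which degrade denatured collagens and basement membrane collagen IV, had differences of opposite sign, and neither passed the test. Mmp2 had 290.2, 387.5 and 248.8 in Arid1a f/f uteri and 248.0, 131.9 and 194.3 in Arid1a d/d uteri. The lowest Arid1a f/f array was almost level with the highest Arid1a d/d array, and the spread within each genotype was wide. Its log2 fold change was -0.71 (standard error 0.24, adjusted p = 0.141, limma), and -0.84 on its other probe set (adjusted p = 0.104, limma). Without Arid1a d/d replicate 2 it was -0.47. Mmp9 had 8.25, 8.63 and 7.19 against 12.22, 9.81 and 10.01, higher in each Arid1a d/d uterus, at 0.41 on the log2 scale (adjusted p = 0.108, limma).

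Mmp11, stromelysin-3, is made by stromal cells of remodeling tissue. It had 11.65, 44.87 and 15.14 in Arid1a f/f uteri and 12.61, 8.87 and 11.65 in Arid1a d/d uteri, so that 1 Arid1a f/f array stood far above all others. With all arrays the change was -0.87 on the log2 scale (adjusted p = 0.330, limma), and it was -0.28 without that array, Arid1a f/f replicate 2. Mmp14, the membrane-bound activator of MMP2, had 247.2, 285.5 and 207.1 against 228.4, 235.0 and 222.9. The Arid1a d/d values lay within the range of the Arid1a f/f values, with a log2 fold change of -0.10 (95% confidence interval -0.39 to 0.19), which turned to 0.02 without Arid1a f/f replicate 2. The 4 membrane-type genes had log2 fold changes from -0.23 to -0.01. Mmp23, Mmp7 and Mmp17 had -0.06, 0.01 and -0.01.

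All 4 TIMP genes had log2 fold changes below 0, as did 53.5% of all genes. Of the 4, 1 passed as lower (25.0%, against 4.06% of all genes and 5.96% of the brighter ones). Percentages of 4 genes are coarse. Timp2, which inhibits MMPs and helps MMP14 to activate MMP2, had 443.3, 502.9 and 472.6 in Arid1a f/f uteri and 374.1, 305.6 and 350.5 in Arid1a d/d uteri. The genotypes did not overlap, and its -0.46 on the log2 scale just missed the threshold (standard error 0.11, adjusted p = 0.0521, limma). Its 5 other probe sets had values from -0.25 to -0.04 and none passed in limma. Timp3, which is bound to the matrix and inhibits ADAM17 and ADAMTS enzymes, had 170.7, 223.1 and 138.2 against 146.8, 129.3 and 130.8, with overlap and a difference of -0.36 on the log2 scale (adjusted p = 0.294, limma). Timp4 had -0.17, with means of 3.33 and 2.97, close to the median intensity of 3.08. Timp1, Timp3 and Timp4 each lie inside a synapsin gene (Syn1, Syn3 and Syn2). Of the host probe sets, 0 of 1 for Syn1, 0 of 3 for Syn3 and 1 of 6 for Syn2 passed in limma, the last at -1.05 on the log2 scale (adjusted p = 0.0181).

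**Figure D3:**
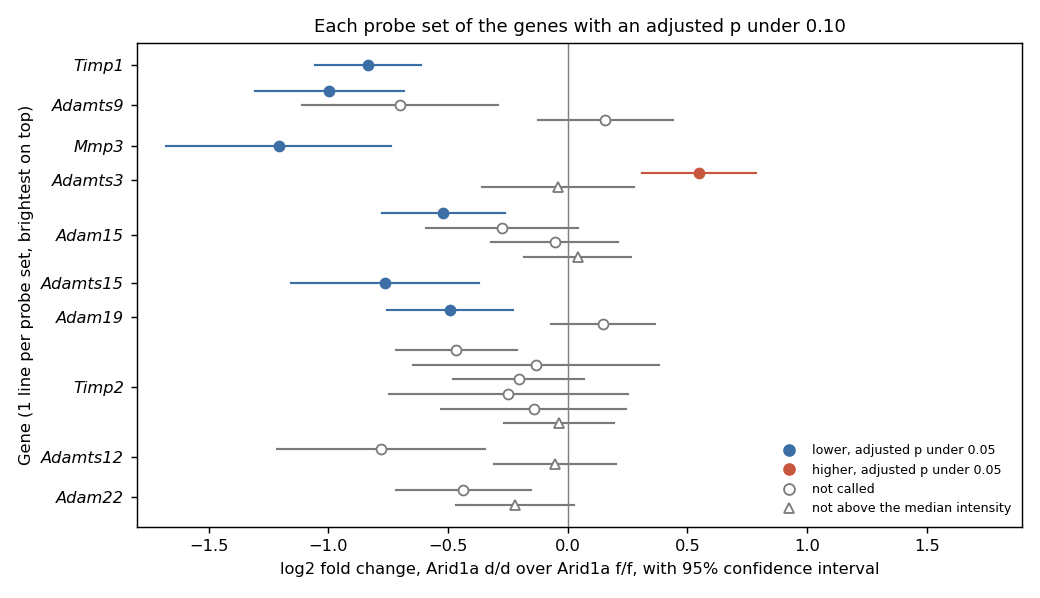
Log2 fold change with its 95% confidence interval (horizontal axis) for every probe set of the 10 genes with an adjusted p under 0.10, brightest on top within a gene. Timp1, Mmp3 and Adamts15 have 1 probe set each, and no gene has 2 probe sets past the test.

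Arrays of a genotype also differed among themselves. Among the 38 brighter genes, Arid1a f/f replicate 2 held the highest Arid1a f/f value for 16 (42.1%, against 27.0% of the 12085 brighter genes), among them Mmp2, Mmp11, Mmp14, Adamts4, Timp2 and Timp3. Arid1a d/d replicate 2 held the lowest Arid1a d/d value for 19 (50.0%, against 39.2%), including Mmp2, Mmp11, Adamts1, Adamts5, Adamts9, Adamts12 and Timp2. Arid1a d/d replicate 1 held the highest for 18 (47.4%, against 29.8%), and Arid1a f/f replicate 3 held the lowest Arid1a f/f value for 17 (44.7%, against 26.2%). The summed intensity of 12 stromal fibroblast markers was 11411, 11809 and 10666 on the Arid1a f/f arrays and 10253, 8698 and 8517 on the Arid1a d/d arrays.

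**Figure D4:**
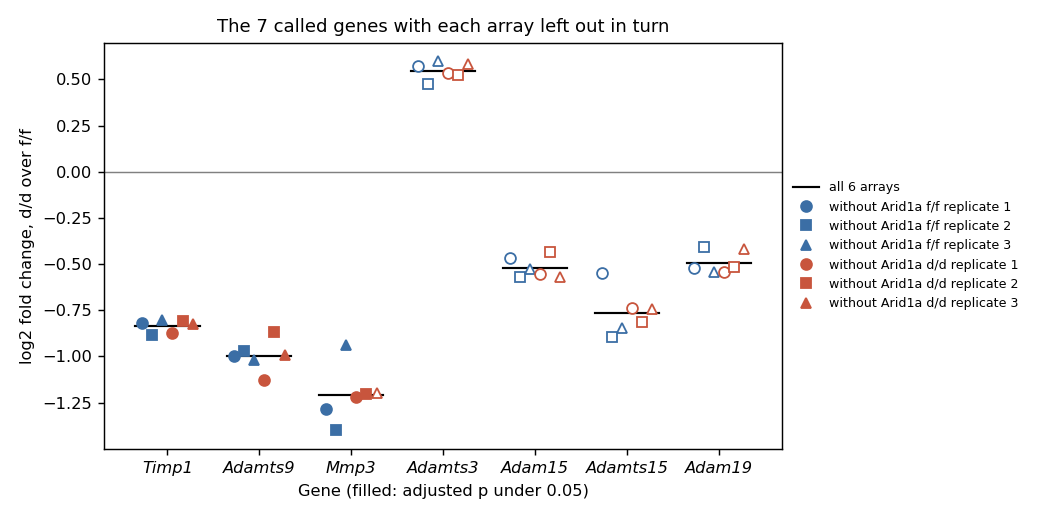
Log2 fold change of the 7 called genes (vertical axis) from all 6 arrays (black bar) and with each array left out in turn (points, filled where the adjusted p stayed under 0.05). Timp1 and Adamts9 are filled throughout, Mmp3 in 5 of 6, and Adamts3, Adam15, Adamts15 and Adam19 in 0 of 6.

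Among partner genes of the proteases, 16 activators and cofactors were measured. Of these 0 were higher and 1 lower (6.25%, near the 4.06% of all genes and 5.96% of the brighter ones). That gene was Tspan5, a tetraspanin that escorts ADAM10 (log2 fold change -0.61, standard error 0.10, adjusted p = 0.0172, limma), and it missed the threshold when Arid1a f/f replicate 1, 2 or 3 or Arid1a d/d replicate 2 was left out. Furin, which activates MMP11, MMP14 and most ADAMs, had -0.07, and Bsg, the MMP inducer basigin, had -0.11.

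Of 13 measured genes of other inhibitors and of clearance, 1 was higher (7.69%, against 3.37% of all genes). In this group 3 were lower (23.1%, against 4.06% of all genes and 5.96% of the brighter ones). A2m encodes alpha-2-macroglobulin, an inhibitor that traps proteases of all classes. It had 34.8, 20.2 and 8.65 in Arid1a f/f uteri and 264.4, 190.7 and 88.1 in Arid1a d/d uteri. Values varied widely within each genotype, yet the lowest Arid1a d/d array stood above the highest Arid1a f/f array (log2 fold change 3.17, standard error 0.51, adjusted p = 0.0139, limma). Without Arid1a f/f replicate 2 it was called no longer (adjusted p = 0.0609, limma), and the log2 fold change was between 2.63 and 3.64 whichever array was left out. The lower genes were the testican gene Spock2 at -1.09 (adjusted p = 0.00785), the endocytic receptor gene Lrp1, which clears protease and inhibitor complexes, at -0.62 (adjusted p = 0.0167), and Tfpi2, a serine protease inhibitor gene, at -0.64 (adjusted p = 0.0295). Lrp1 missed the threshold when Arid1a f/f replicate 2 or 3 or Arid1a d/d replicate 3 was left out, and Tfpi2 without replicate 2 or 3 of either genotype. Without Arid1a f/f replicate 2 or 3 or Arid1a d/d replicate 3, 1 gene of this group was lower. Reck, a membrane-anchored MMP inhibitor, had 68.4, 79.4 and 77.4 against 72.0, 39.4 and 63.0, and its -0.41 did not pass (adjusted p = 0.338, limma).

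Of 23 measured matrix substrates 7 were lower (30.4%, against 4.06% of all genes and 5.96% of the brighter ones). Higher substrates numbered 0, against 3.37% of all genes. The median over the 23 was -0.27 on the log2 scale, beside -0.018 over all genes. The lower genes were Vwf, which ADAMTS13 cleaves, at -1.46, the proteoglycan genes Bgn at -1.22 and Dcn at -1.06, the laminin chain genes Lama2 at -1.05 and Lamc1 at -0.57, and the collagen IV chain genes Col4a2 at -0.64 and Col4a1 at -0.59. Vwf and Bgn passed under each omission of 1 array. Vwf is also in the endothelial marker list below, and Dcn, Lum, Col1a1, Col1a2 and Col3a1 are in the stromal fibroblast list. Their probe sets thus enter both sets of counts, which are not separate results. Adamts13 is not among the members measured here. The number of lower substrates was 3, 2 and 4 without Arid1a f/f replicates 1, 2 and 3, 3 without Arid1a d/d replicate 2 and 4 with Arid1a d/d replicate 3 omitted, and the omission of Arid1a d/d replicate 2 gave 1 higher. Dcn missed the threshold when replicate 2 of either genotype was omitted, and Lama2 when any 1 Arid1a f/f array was.

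Among cell type markers in the same RNA, most of the endothelial list passed the test, and few of each other list did. Of 12 endothelial markers 11 were lower (91.7%, against 5.96% of the brighter genes) and 0 higher. On the lower side 11 did not overlap between genotypes (91.7%, against 19.9%). The summed intensity of the 12 was 603.9 to 618.6 in Arid1a f/f and 261.9 to 314.1 in Arid1a d/d uteri. Of 12 stromal fibroblast markers 1 was lower (8.33%), and 5 did not overlap on the lower side (41.7%). Their sums were 10666 to 11809 and 8517 to 10253, with Col1a2 and Col3a1 the brightest of the list. Of 12 smooth muscle markers 1 was lower (8.33%), and 3 did not overlap on the lower side (25.0%). The smooth muscle sums, 10355 to 11780 and 9698 to 11447, overlapped between genotypes. Of 13 epithelial markers 2 were higher (15.4%, against 5.01% of the brighter genes) and 0 lower. On the higher side 6 did not overlap between genotypes (46.2%, against 17.9%). The epithelial sums, 1165 to 1253 and 1237 to 2487, overlapped, and the highest was on Arid1a d/d replicate 2. All markers of these 4 lists had means above the median intensity. In whole uterus, fewer cells of a type and less RNA per cell cannot be told apart, and the part of cell makeup in the falls of Timp1, Adamts9, Mmp3 and the other members was not tested.

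**Figure D5:**
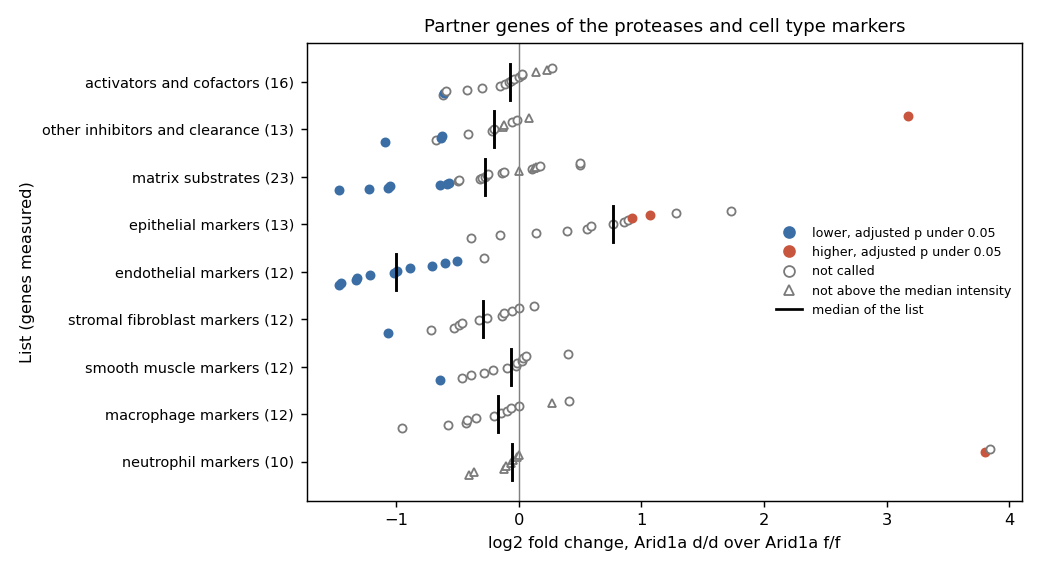
Log2 fold change (horizontal axis) of each measured gene of the 3 partner lists and 6 marker lists, with the number of genes in parentheses, filled where the gene passed the test, and the median of each list as a black bar. The median was -1.002 for endothelial markers, -0.29 for stromal fibroblast markers and 0.77 for epithelial markers, and the point at 3.17 is A2m.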

How the data were processed

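RMA with global scaling was used by the authors, according to their methods. These set each array's trimmed mean to a fixed target that the deposited table does not show, so how its values were rescaled is unknown, and intensities are used only relative to each other. The submitters' processing notes name RMA and no version. The deposited values are normalized intensity values on a linear scale (1.29 to 4479) for 45037 probe sets on 6 arrays, and no genome build is named. RMA shares information between arrays and compresses small differences near background. Log2 was taken, with no filter on dim probe sets, and limma 3.58.1 (R 4.3.3) compared the genotypes by two-sided moderated tests from lmFit and eBayes, and p-values were adjusted over all probe sets (Benjamini-Hochberg). Precision is limited by the number of arrays. The platform annotation gave the names: 34945 name 1 gene, 932 several and 9160 none here.

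Named are all members past the test or with an adjusted p from 0.05 to 0.10, all TIMPs, the brightest member of each role and up to 4 partner genes per list. Adamts4, Adamts5, Adamts7, Adamts8, Adamts10, Adam8, Adam9, Adam11, Adam12, Adam17, Adam23, Mmp7, Mmp9, Mmp17 and the other Mmp genes of the cluster were added after their values were seen, as were Furin, Bsg, Reck, Col4a1, Col4a2 and Lamc1. The members and lists were chosen with earlier results of these data known. On simulated data the fit called 76 of 100 probe sets shifted by 1 (log2), 99 of 100 shifted by 2 and 10 of the 44837 left as they were. Alternatives were another normalization, moderation, weighting, filter, threshold, offset, probe set choice and test, a replicate block and leaving out each array. RefSeq held promoters for 37 of the 65 genes.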

Additional observations from a re-analysis of the deposited data

How the results depend on the processing

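The 6 lower members and 1 higher member became 11 and 3 with the methods' t-test at an unadjusted p under 0.05. After Benjamini-Hochberg they were 0 and 0, and that test called 0 of all probe sets. The methods name it for 2-group data in general, while the paper describes a fold change filter for its array genes. At an adjusted p under 0.01 there were 2 lower and 0 higher, and with the mean of each gene's probe sets 0 higher. The shares of all genes at an unadjusted p under 0.05 or an adjusted p under 0.01 were not counted. The member counts there are therefore no result about the members. Leaving out each array in turn gave 2 to 4 lower and 0 to 0 higher members. The median log2 fold change of the members was -0.20 without dim probe sets, which leaves 38 genes, -0.026 with 4 added to each intensity, and from -0.11 to -0.046 with an array left out. Lower activators and cofactors then numbered 0 to 1 and higher ones 0 to 0, lower inhibitor and clearance genes 1 to 4 and higher ones 0 to 1, lower matrix substrates 2 to 6 and higher ones 0 to 1. Of the 37 members named, 11 changed sign under at least 1 setting, in 19 values in all, and none of the 11 passed under any setting. With the mean of the probe sets Adam10 was -0.0233 and Adam17 0.0476, and with array weights Adamts7 was 0.00754. With an array left out, Mmp14 ran from -0.216 to 0.0154, Mmp23 from -0.129 to 0.0697, Mmp17 from -0.170 to 0.0925, Mmp7 from -0.0352 to 0.102, Mmp8 from -0.0339 to 0.165, Mmp13 from -0.0450 to 0.0902, Adam9 from -0.110 to 0.0633, Adamts5 from -0.442 to 0.242 and Adamts7 from -0.201 to 0.257. Timp1 and Adamts9 were called in 18 of 19 alternatives each, Mmp3 in 15, Adamts3 and Adamts15 in 10, Adam15 in 9 and Adam19 in 6. Timp2 passed in 7 and Adamts12 in 6. The cause of these losses was not tested.

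Arrays with the same replicate number did not deviate together (correlations of -0.0036, 0.047 and 0.14), and not every array correlated best with its own number, so the numbers were not taken as pairs. With the replicate number as a block, 2165 probe sets were called against 2147 without it, and 6 members were lower and 1 higher, with Adamts12 gained and Adam19 lost.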
